A study of Mus musculus with 3 samples.

Results

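Cxcl9 and Cxcl10 encode secreted chemokines and Cxcr3 encodes their shared receptor. These 3 genes, of 32285 in the count tables, were followed through single-cell RNA sequencing (scRNAseq) of CD45+ immune cells from 4T1 mammary tumors. They were taken by name because Cxcl9 had been seen to be lower in macrophages of both p38 groups than in those of the vehicle group, so that contrast is a description here and supports nothing. All tumors grew in the mammary fat pad of female BALB/c mice that were 6 to 8 weeks old at implantation of 200000 cells, and all were collected on day 14. The vehicle group carried 4T1-luc cells with wildtype p38α and received DPBS from day 4 for 10 days. The p38i group carried the same cells and received LY2228820 (Ralimetinib, an inhibitor of p38α and p38β) by daily gavage at 30 mg/kg over the same days. The p38KO group carried p38a-KO-H9, a single CRISPR-Cas9 clone of 4T1-luc cells without p38α, and its labels name no treatment. The knockout was in the tumor cells alone and the sorted host cells kept their own Mapk14, the gene of p38α, so these libraries cannot check it. Each group was 1 library made from the pooled tumors of 3 mice. There was no replicate, and no test between groups was made.

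CXCL9 and CXCL10 attract activated T cells and natural killer (NK) cells that carry CXCR3 on their surface. Interferon-γ from T and NK cells induces both ligands. Cxcl10 also responds to type I interferons and to NF-κB. In tumors, macrophages and dendritic cells (DC) are known sources of these ligands.

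Both ligand genes lie on the minus strand of mouse chromosome 5 (GRCm38, GENCODE M21 annotation). Cxcl9 (ENSMUSG00000029417) spans chr5:92321347-92328079 with up to 4 exons, and Cxcl10 (ENSMUSG00000034855) spans chr5:92346638-92348889 with up to 4 exons. Their starts are 20810 bases apart. Cxcl10 lies within Art3, which is on the plus strand, and no annotated gene overlaps Cxcl9. Cxcr3 (ENSMUSG00000050232) has 2 exons at chrX:101731535-101734269, also on the minus strand.

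The 250 bases before each ligand's start are shown because the ligands are neighbours and yet differed in cell type and response, as described further on. They come from RefSeq (GRCm38.p6, minus strand, read 5′ to 3′), and capitals mark motif matches. The windows are chr5:92328080-92328329 for Cxcl9 and chr5:92348890-92349139 for Cxcl10.
Cxcl9: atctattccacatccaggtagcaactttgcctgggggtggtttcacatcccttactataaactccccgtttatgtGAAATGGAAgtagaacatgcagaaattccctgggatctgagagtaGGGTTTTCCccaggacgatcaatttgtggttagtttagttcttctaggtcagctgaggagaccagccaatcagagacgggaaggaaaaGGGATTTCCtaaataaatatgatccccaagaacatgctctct
Cxcl10: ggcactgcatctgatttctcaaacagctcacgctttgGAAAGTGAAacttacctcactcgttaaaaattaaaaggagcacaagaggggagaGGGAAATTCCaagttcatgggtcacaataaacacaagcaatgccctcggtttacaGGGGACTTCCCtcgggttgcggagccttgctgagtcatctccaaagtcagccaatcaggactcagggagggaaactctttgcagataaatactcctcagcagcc
Both strands were searched for the interferon-stimulated response element (ISRE, here by its core letters GAAANNGAA), the gamma-activated site (GAS, TTCNNNGAA), the NF-κB consensus of 10 letters, and a shorter NF-κB form (GGGNNTTCC). The Cxcl10 window held 1 ISRE core, 213 to 205 bases before the start, and NF-κB consensus letters from 159 to 150 and from 104 to 94 bases before it. The latter stretch holds overlapping matches and the shorter form. The Cxcl9 window held 1 ISRE core, 175 to 167 bases before the start, and the shorter NF-κB form 2 times, from 130 to 122 and from 42 to 34 bases before it, without a match to the NF-κB consensus of 10 letters. The ISRE was first searched for with 1 more A at the end of these letters. In that longer form, held by 2.98% of promoters, the Cxcl10 window has its match and the Cxcl9 window none, and the shorter core was taken after this had been seen, so the presence of an ISRE match in the Cxcl9 window depends on the letters chosen. GAS letters were found in neither window. Of 32851 promoters of the same length, 7.13% held the ISRE core, 7.02% the GAS, 7.25% the NF-κB consensus and 4.98% the shorter form. A match is a description of letters, and the lack of one says nothing on other sites.

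The libraries held 4588 (vehicle), 6343 (p38i) and 5212 (p38KO) barcodes. A cell needed 1500 or more UMIs (unique molecular identifiers, 1 for each captured transcript), 300 or more genes and no more than 20% of its counts from mitochondrial genes, which 3820, 4793 and 3859 met. Median depths were 3162, 3038 and 3317 UMIs per cell, and median mitochondrial shares 0.671%, 0.968% and 2.1%. Libraries shared 5 to 9 barcodes by pairs. Raw counts of Cd3e, Ncr1, C1qa, Flt3, Ly6c2 plus Fn1, and Csf3r plus Cxcr2 put cells in gates. The gates were T, NK, macrophage, DC, monocyte and neutrophil. T and NK cells that met the C1qa, Flt3 or neutrophil minimum were set aside as mixed. DC that met the neutrophil minimum were mixed too. Cells with C1qa were macrophages where C1qa exceeded Csf3r plus Cxcr2, even above the neutrophil minimum, and mixed otherwise. Between monocyte and neutrophil the larger count decided, and ties were mixed. C1qa was read before Flt3, and Flt3 before Ly6c2 plus Fn1, so a gate could hold cells that met another. The macrophage gate held 175, 193 and 574 cells (4.58%, 4.03% and 14.9% of kept cells), the monocyte gate 439, 752 and 363, the neutrophil gate 1751, 2075 and 1529, the T gate 555, 656 and 528, the NK gate 117, 114 and 132, and the DC gate 43, 84 and 79. Another 105, 111 and 199 cells were mixed, and 635, 808 and 455 met no gate. The defining markers of each gate were present in it in all libraries, as the gating itself requires. CPM are counts of a gene per 1e+06 counts of the gate. In the monocyte gate the neutrophil marker list summed to 10672 CPM in vehicle, 9152 CPM in p38i and 3316 CPM in p38KO. The gate's own list summed to 3903, 3520 and 4754 CPM. The monocyte gate thus also held neutrophil transcripts, at the lowest level in p38KO, so its makeup moved with the groups. In p38KO it held 141 CPM of tumor or epithelial markers, against 3.99 to 5.59 CPM in the other libraries. In the DC gate the monocyte list summed to between 1317 and 1474 CPM, against 872 to 1514 CPM for the DC list. Ccr7 in the DC gate was at 15.5, 104 and 161 CPM in vehicle, p38i and p38KO. The macrophage gate held 1168 to 1514 CPM of neutrophil markers. The NK gate held 457 CPM of mast or basophil markers in p38KO, against 1.37 CPM in vehicle and 1.33 CPM in p38i. Its NK list summed to 9716, 9202 and 6611 CPM in vehicle, p38i and p38KO. The part of these transcripts in the results was not tested.

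Levels are summed counts in CPM. Intervals are 95% and cover counting error only. Since a few cells often held most of a gene's UMIs, they are narrower than the spread between mice would be. A gene is called higher or lower where its log2 ratio reached 0.5 either way with at least 50 counts over both libraries.

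Among the gates, the Cxcl9 level was highest in macrophages of each library, and within macrophages it was highest in vehicle. Only sorted CD45+ cells were measured, so other cells of the tumors are not covered. Monocytes gave 20.1%, 26.0% and 14.6% of all Cxcl9 UMIs of the vehicle, p38i and p38KO libraries. Macrophages gave 69.0%, 52.5% and 70.5% of all Cxcl9 UMIs of the vehicle, p38i and p38KO libraries, from 4.03% to 14.9% of the kept cells. Their Cxcl9 level was 1520.5 CPM in vehicle, 602 CPM in p38i and 476 CPM in p38KO macrophages. The vehicle interval, 1479.7 to 1562 CPM, lay above those of the other libraries, which reached 629 and 489.8 CPM. The log2 ratio to vehicle of p38i macrophages was -1.34 (-1.41 to -1.26). That of p38KO macrophages was -1.68 (-1.74 to -1.62). Of all genes measured in the macrophage gate, 5.93% were lower by the fold in p38i and 3.94% in p38KO. Nothing is read from that background for Cxcl9, which was chosen on this contrast.

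**Figure D1:**
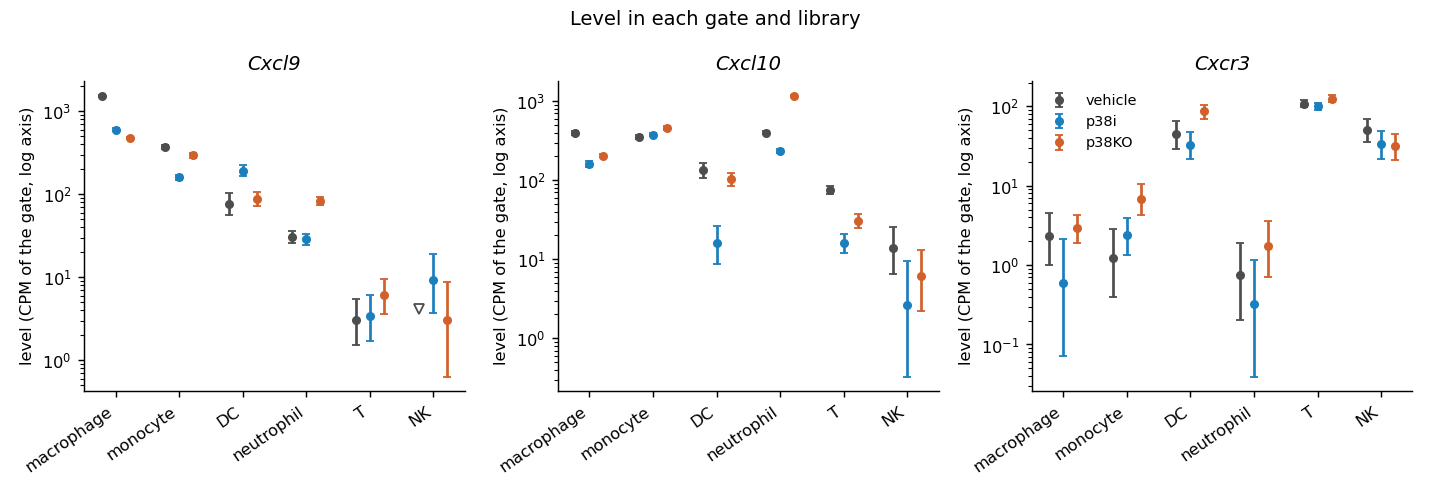
Level of Cxcl9, Cxcl10 and Cxcr3 in each gate (CPM of the gate, log axis) in the vehicle, p38i and p38KO libraries, as points with 95% Poisson intervals. The open triangle marks a count of 0 at the level that 3 counts would give (4.12 CPM, Cxcl9 in vehicle NK cells). Cxcl9 was highest in macrophages, Cxcl10 was spread over the myeloid gates with p38KO neutrophils at the top, and Cxcr3 was highest in T cells.

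The share of macrophages with Cxcl9 was also lowest in p38KO. After every cell was thinned to 1500 UMIs, 37.1% (30.0 to 44.8%) of vehicle macrophages held a Cxcl9 UMI, against 33.7% (27.1 to 40.8%) of p38i and 21.4% (18.1 to 25.02%) of p38KO macrophages. The intervals of vehicle and p38i overlapped widely, and that of p38KO lay below both. At their own depth, 63.4% of vehicle macrophages held a UMI. As background, 0.180% to 0.947% of T cells had one after thinning. The p38KO macrophages were shallower, with a median of 13364 UMIs against 17362 in vehicle and 16826 in p38i.

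The cells with most Cxcl9 stood out in the vehicle library. There, 9 macrophages held 50% of the gate's Cxcl9 UMIs, and the highest cell had 414. In p38i 15 cells did so, with at most 135 UMIs in a cell, and in p38KO 17 cells with at most 303. Without the 5 leading cells of each library the levels were 1073 CPM in vehicle, 465 CPM in p38i and 368 CPM in p38KO, so the order of the libraries remained.

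**Figure D2:**
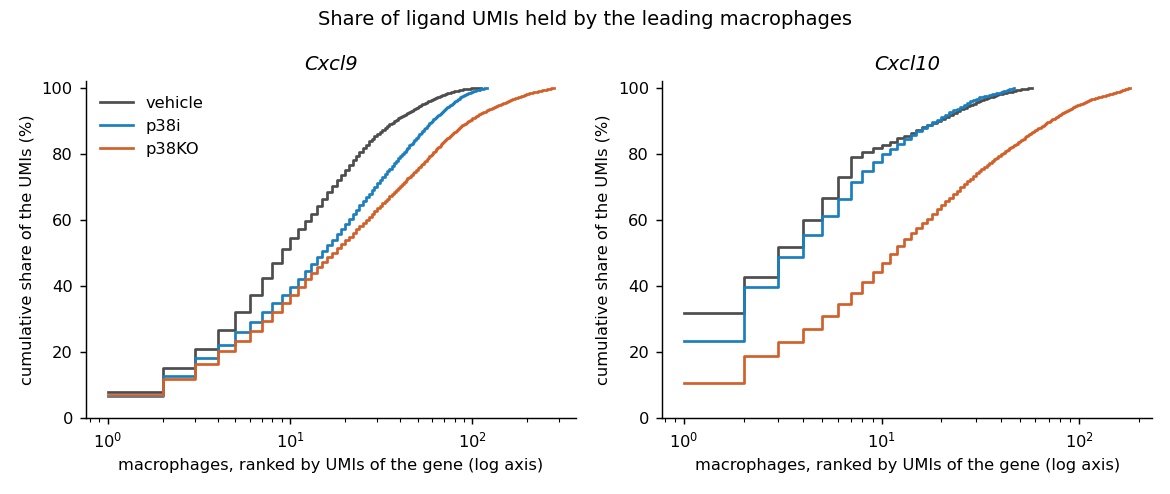
Cumulative share (%) of the Cxcl9 (left) and Cxcl10 (right) UMIs of the macrophage gate against macrophages ranked by their UMIs of that gene (log axis), 1 line per library. The 5 leading vehicle macrophages held 32.1% of Cxcl9 and 66.5% of Cxcl10 UMIs, and the 5 leading p38KO macrophages 23.5% and 31.0%.

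Cxcl9 was lower than in vehicle in every subset of macrophages examined. The subsets divide the same cells on which Cxcl9 was chosen, so they add no separate support. In macrophages with Ly6c2 or Fn1, which mark recent descent from monocytes, Cxcl9 was at 1135 CPM in vehicle, 479.5 CPM in p38i and 378 CPM in p38KO. Without these transcripts it was at 1816, 738 and 599 CPM. In cells with Mrc1, the mannose receptor, it was 1493, 413 and 418 CPM. Macrophages with Arg1 (arginase 1), an enzyme that depletes arginine, held 837, 343 and 473 CPM, and those without it 1934, 796 and 477 CPM. Cycling macrophages with Mki67 or Top2a held 1860.1, 891 and 524 CPM, from only 14, 13 and 67 cells. The split on Arg1 thus separated Cxcl9 levels in vehicle and p38i, while in p38KO the intervals of both sides overlapped. The makeup of the gate also moved with the groups: its macrophage marker list summed to 23037 CPM in vehicle, 26394 CPM in p38i and 35118 CPM in p38KO, led by Apoe. The part of this in the Cxcl9 level was not tested.

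Outside macrophages, Cxcl9 took other courses. Monocytes held 373 CPM in vehicle, 159.5 CPM in p38i and 295 CPM in p38KO, log2 ratios of -1.22 (-1.34 to -1.11) and -0.34 (-0.46 to -0.22). Of all genes, 3.6% were lower by the fold in p38i monocytes, and with gates from scaled marker lists the Cxcl9 ratio there was -0.27. The p38KO value rests on few cells, since 5 monocytes held 70.5% of its UMIs and the ratio without the 5 leading cells of each library was -1.22. It turned to 0.21 with gate minimums of 1 UMI and to 0.44 with gates from scaled marker lists. Neutrophils held 30.8 CPM in vehicle, 28.7 CPM in p38i and 83.3 CPM in p38KO, the latter a log2 ratio of 1.44 (1.16 to 1.72), where 12.7% of genes were higher by the fold. The macrophage marker list in that gate was also highest in p38KO, at 291, 400.4 and 575 CPM. It was higher than vehicle in p38i too, where Cxcl9 was not, and its part in the Cxcl9 level was not tested. When cells that met several gates were kept, the ratio of p38KO neutrophils was -0.38. DC held 77.4, 192 and 88.4 CPM, and p38i was called higher (log2 ratio 1.31, 0.83 to 1.82, against 11% of genes), but 5 of 84 cells held 88.8% of those UMIs and gates from scaled marker lists gave 0.15. T and NK cells held at most 9.29 CPM.

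Cxcl10 was shared among neutrophils, monocytes and macrophages, and it was higher in p38KO neutrophils than in those of vehicle. The p38KO values of macrophages and T cells, given further on, were lower, and a few vehicle cells held much of the vehicle UMIs there. In neutrophils its level was 399 CPM in vehicle, 235 CPM in p38i and 1159.9 CPM in p38KO. The log2 ratio to vehicle of p38i neutrophils was -0.76 (-0.86 to -0.67). That of p38KO neutrophils was 1.54 (1.46 to 1.61). The shares of genes past the fold in those directions were 4.02% and 12.7%. In p38KO the neutrophils alone gave 51.5% of the library's Cxcl10 UMIs, against 35.1% in vehicle and 29.5% in p38i.

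A larger share of neutrophils carried Cxcl10 in p38KO, and the 5 leading cells held a smaller part of its UMIs there than in vehicle. After thinning, 15.3% (13.5 to 17.2%) of p38KO neutrophils held a Cxcl10 UMI, against 7.42% (6.24 to 8.75%) in vehicle and 6.46% (5.44 to 7.6%) in p38i, whose intervals overlapped. T cells, as background, were at 1.37% to 2.27%. In p38KO 33 of 1529 neutrophils held 50% of the UMIs, and in vehicle 14 of 1751, so in both a small part of the cells held much of the level. The 5 leading cells held 14.2% in p38KO and 24.1% in vehicle. Without the 5 leading cells the levels were 304, 191 and 999 CPM. The neutrophil marker list of that gate was lowest in p38KO, at 191165, 211012 and 146706 CPM, and its part in the Cxcl10 level was not tested.

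In neutrophils the type I interferon genes lay on the same side of vehicle as Cxcl10 in each p38 group. Isg15, Ifit1, Ifit2, Ifit3, Rsad2, Oas3 and Cmpk2, which are antiviral effectors induced by type I interferon, were all measured there. In p38i 7 of 7 were lower by the fold (4.02% of all genes were), with a median log2 ratio of -1.63, and in p38KO 6 of 7 were higher (12.7% of all genes were), with a median of 0.84; the median over all genes was 0.09 in both. Rsad2 (viperin) was at 1134 CPM in vehicle, 353 CPM in p38i and 2086 CPM in p38KO. Ifit1, which binds foreign RNA, was at 459, 127 and 820.0 CPM. Isg15, a ubiquitin-like modifier, did not pass the fold in p38KO (0.45). Both comparisons share the vehicle library.

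Neutrophils were then split by these 7 genes, at 5 or more summed UMIs in the thinned cell. The cut was chosen after the counts were seen, and Cxcl10 was not part of the sum. Above it lay 30.2% of vehicle, 16.0% of p38i and 43.6% of p38KO neutrophils, and between 54 and 111 cells per library sat at 5 UMIs or at 4. Cxcl10 was at 1139.5 CPM in these interferon-high cells in vehicle, 961 CPM in p38i and 2171 CPM in p38KO. In the other neutrophils it was at 107, 116 and 359 CPM. So p38KO was higher on both sides of the split, with log2 ratios of 0.93 (0.85 to 1.01) and 1.75 (1.57 to 1.92). For p38i the ratios were -0.25 (-0.37 to -0.13) and 0.12 (-0.07 to 0.30), neither past the fold, while fewer of its neutrophils were interferon-high.

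**Figure D3:**
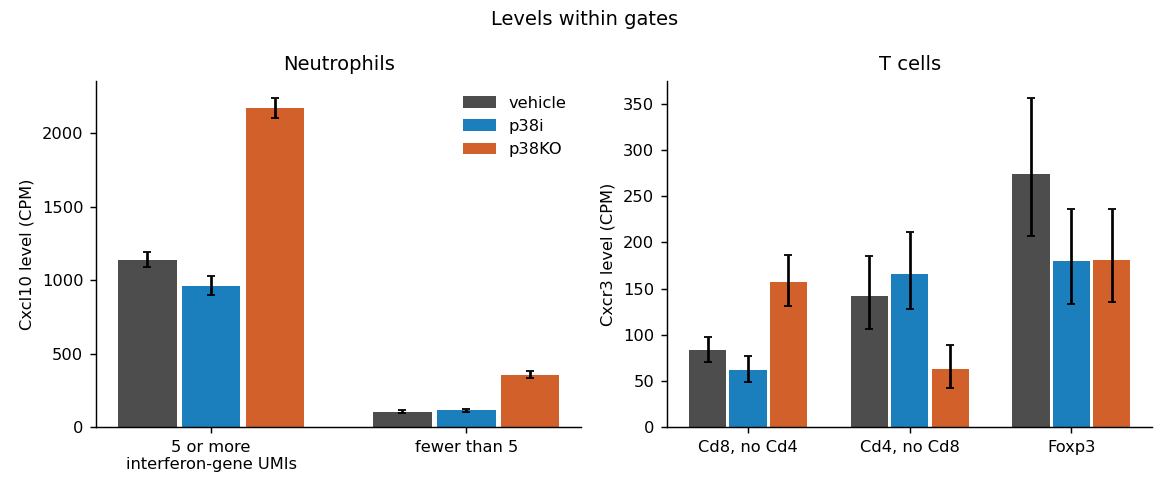
Left, Cxcl10 level (CPM) in neutrophils with 5 or more and with fewer UMIs of 7 type I interferon genes; right, Cxcr3 level (CPM) in T cells with Cd8, with Cd4 or with Foxp3. Bars are the vehicle, p38i and p38KO libraries with 95% Poisson intervals. The p38KO bar is highest on both sides for Cxcl10 (2171 and 359 CPM), and for Cxcr3 it is highest in the Cd8 cells (157 CPM) and lowest in the Cd4 cells (62.9 CPM).

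In macrophages Cxcl10 was lower in both p38 groups, on few cells. Its level was 396 CPM in vehicle, 160.4 CPM in p38i and 204 CPM in p38KO, log2 ratios of -1.30 (-1.45 to -1.16) and -0.96 (-1.06 to -0.86). In vehicle, 3 of 175 macrophages held 50% of the UMIs, and 1 cell had 435 of 1367. Without the 5 leading cells of each library, the levels were 142, 65.7 and 142 CPM, a log2 ratio of -0.0011 for p38KO. These were 5 of 175 vehicle and 5 of 574 p38KO macrophages and held 66.5% and 31.0% of the UMIs. Removing them thus took a larger part of the vehicle gate, so this ratio does not compare like with like. Without cells above the 99th percentile of UMIs the p38KO ratio was 0.68. The share of macrophages with a Cxcl10 UMI after thinning was 17.1% (11.9 to 23.6%) in vehicle, 9.33% (5.62 to 14.3%) in p38i and 12.9% (10.3 to 15.9%) in p38KO, and these intervals overlap.

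The lower Cxcl10 was not seen in every subset of macrophages. In vehicle, 5 macrophages held 66.5% of the gate's Cxcl10 UMIs, so each vehicle level depends on which subset held these cells. Where they lay was not tested. Those with Ly6c2 or Fn1 held 574, 76.2 and 171 CPM, and those without held 258, 253 and 245 CPM, which lie within each other's intervals. Cells with Mrc1 held 143, 124 and 189 CPM and cells with Arg1 held 147, 144 and 215 CPM. The vehicle cells without Arg1 (546 CPM) and without Mrc1 (527 CPM) stood above those of p38i (173 and 179 CPM) and p38KO (196 and 216 CPM). Macrophages were also split by the interferon genes, as neutrophils were. The p38KO log2 ratio was 3.22 (2.28 to 4.36) in interferon-high macrophages and -1.22 (-1.33 to -1.12) in the others. For p38i it was 0.29 (-1.02 to 1.68), on too few counts to be called, and -1.32 (-1.47 to -1.18). Both interferon-high ratios rest on the same vehicle cells, whose own Cxcl10 counts thus lay below the minimum for a call. The p38KO ratio of 3.22 passes that minimum through its p38KO counts and has few vehicle counts behind it, so its size is uncertain. No test of the difference between subsets was made.

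Monocytes held Cxcl10 at 355 CPM in vehicle, 377 CPM in p38i and 457 CPM in p38KO, and neither ratio passed the fold (0.09, -0.01 to 0.18, and 0.36, 0.26 to 0.47). Their share with a UMI after thinning was 11.8% (8.97 to 15.2%), 8.64% (6.73 to 10.9%) and 16.3% (12.6 to 20.5%), so the intervals of p38i and p38KO did not overlap. Cxcl10 was at 1682 CPM in interferon-high vehicle monocytes and 189 CPM in the others. In p38i the values were 2694 and 199 CPM and in p38KO 1884 and 208 CPM. The T cell values, 75.6, 16.03 and 30.7 CPM, passed the fold (-2.24 and -1.30, against 3.47% and 4.49% of genes), but 1 vehicle cell held 183 of 268 UMIs and without the 5 leading cells the levels were 5.14, 3.43 and 10.6 CPM. In DC, Cxcl10 was found in 5 cells of each library. On 14 UMIs in p38i and 78 in vehicle, p38i was called lower (log2 ratio -3.08, -4.02 to -2.25), where 7.82% of genes were. With gates from scaled marker lists this ratio turned to 0.97. The p38KO ratio in DC did not pass the fold (-0.37, -0.80 to 0.06).

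**Figure D4:**
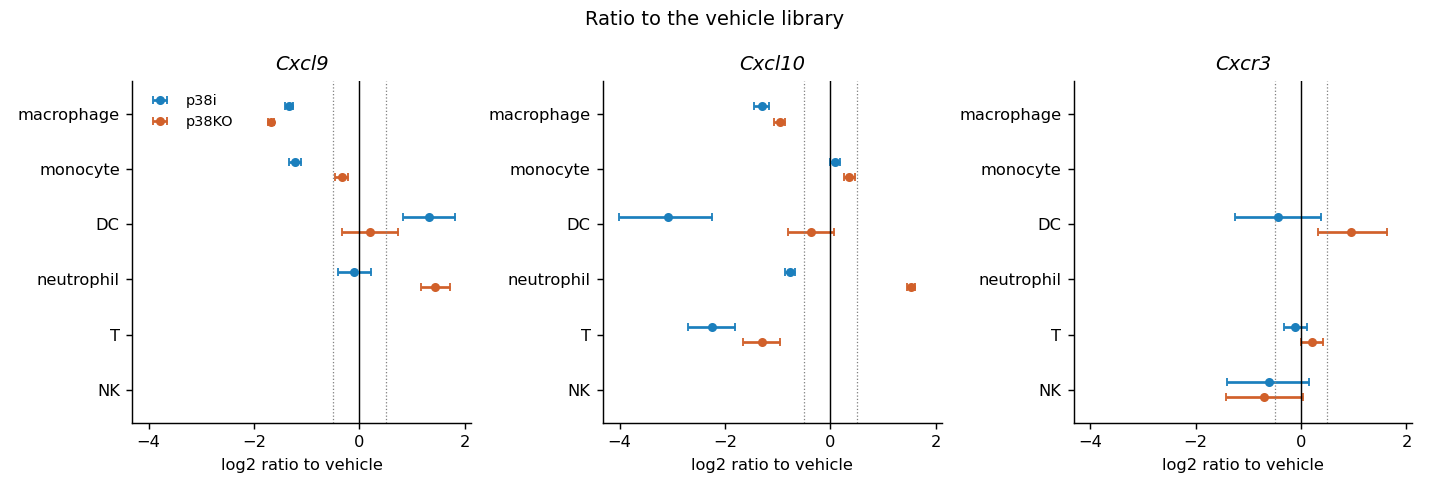
Log2 ratio to vehicle of Cxcl9, Cxcl10 and Cxcr3 in each gate for p38i and p38KO, with exact conditional 95% intervals for counting error. Only gates with at least 50 counts over both libraries are drawn, and dotted lines mark 0.5 either way. In p38KO, Cxcl10 lies at -0.96 in macrophages and at 1.54 in neutrophils.

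Cxcr3 was highest in T cells and was also found in NK cells and DC, and its level in T cells as a whole stayed within the fold of vehicle in both p38 groups. T cells held 109 CPM in vehicle (98.05 to 120.0), 100.5 CPM in p38i (89.9 to 112) and 125 CPM in p38KO (113 to 139), and gave 75.8%, 72.9% and 60.9% of all Cxcr3 UMIs. The log2 ratios to vehicle were -0.11 (-0.33 to 0.10) and 0.21 (-0.00 to 0.42), below the fold. After thinning, 16.2% (13.2 to 19.6%), 15.1% (12.4 to 18.1%) and 17.6% (14.5 to 21.1%) of T cells held a UMI, against at most 0.0964% of neutrophils. Unlike the ligands, Cxcr3 was spread over many cells, with at most 9 UMIs in a T cell and at least 51 cells holding 50% of the UMIs.

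Within T cells, the Cxcr3 ratio of p38KO to vehicle took opposite signs in cells with Cd8 and cells with Cd4. The T gate held 385 Cxcr3 UMIs in vehicle and 372 in p38KO. Cells with neither or both of these transcripts after thinning are outside this split, and they held much of those UMIs. T cells with Cd8a or Cd8b1 and no Cd4, cytotoxic cells by these transcripts, held Cxcr3 at 83.4 CPM in vehicle, 62.1 CPM in p38i and 157 CPM in p38KO. T cells with Cd4 and no Cd8 held 142, 166 and 62.9 CPM. The log2 ratio of p38KO to vehicle was 0.91 (0.57 to 1.26) in the former and -1.17 (-1.86 to -0.51) in the latter, on 154 and 134 UMIs and on 54 and 31 UMIs. With cells thinned to 1500 UMIs the Cd8 ratio was 0.44, below the fold. In p38i the ratios were -0.43 (-0.83 to -0.03) and 0.23 (-0.31 to 0.77). The share of cells with a UMI after thinning was 15.7%, 10.4% and 20% for Cd8 and 14.3%, 21.6% and 7.22% for Cd4 cells. These shares come from the same cells and are given without intervals, so their order adds no separate support. Cd8 cells made up 44.9%, 33.8% and 25.6% of the T gate, so the composition of that gate moved as well.

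T cells with Foxp3, the factor of regulatory T cells, held 274 CPM (206 to 357) in vehicle, 179.8 CPM in p38i and 181 CPM in p38KO, on 51 to 55 UMIs each. T cells with Pdcd1, which encodes the inhibitory receptor PD-1, held 53.3, 41.6 and 89.8 CPM, and those without it 123, 114 and 132 CPM. Among Cd8 cells without Pdcd1, a split chosen after the counts were seen, the levels were 103, 80.4 and 172 CPM.

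NK cells held Cxcr3 at 50.9, 33.2 and 31.4 CPM on 25 to 37 UMIs, and both ratios to vehicle passed the fold with intervals that include 0 (-0.62, -1.41 to 0.15, and -0.70, -1.43 to 0.03). In the NK gate 11.3% and 12.1% of genes were lower by the fold. With thinned cells the NK ratios were -0.23 and 0.41, so the p38KO direction turned. That gate also held mast or basophil markers in p38KO, and their part was not tested. DC held 44.7, 32.8 and 86.6 CPM, the p38KO value above all NK values, and gave 5.12%, 6.49% and 15.7% of all Cxcr3 UMIs against 7.28%, 5.59% and 5.07% from NK cells. In DC, p38KO was higher (0.95, 0.32 to 1.64), where 12.1% of genes were, though the ratio was 0.29 with thinned cells. In DC with Siglech, a marker of plasmacytoid DC taken up after the counts were seen, the levels were 65.5, 77.4 and 135 CPM. In DC with Xcr1 or Clec9a, markers of cross-presenting DC, they were 44.6, 44.6 and 96.5 CPM, from 11, 14 and 26 cells. The myeloid gates held at most 6.84 CPM.

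Genes that carry the interferon signal mostly stayed within the fold in macrophages. Of 14 genes of interferon input and signalling, 12 had enough counts in macrophages and 1 passed the fold upwards in each p38 group, Tyk2 in p38i and Stat2 in p38KO. Of all genes 4.63% and 12.6% were higher, so these counts are near the background. None was lower by the fold in the summed counts of either group. Irf1, an interferon-γ response factor, was at 122 CPM in vehicle, 127 CPM in p38i and 108 CPM in p38KO. Ifng itself was at 107 CPM in vehicle T cells, 128 CPM in p38i and 106 CPM in p38KO. In NK cells it was at 37.1, 26.5 and 93.2 CPM on 27, 20 and 92 UMIs, and p38KO was called higher (log2 ratio 1.33, 0.70 to 2.004, where 8.48% of genes were). The p38KO NK gate also held mast or basophil markers, whose part in this value was not tested. Of 6 genes that restrain the pathway, 5 had enough counts in p38i macrophages and 2 of these were lower (5.93% of all genes were): Zfp36, which encodes tristetraprolin, a protein that destabilizes cytokine mRNA, at 179.7, 71.7 and 142 CPM, and Socs3, a feedback inhibitor of JAK signaling, at 136, 83.6 and 147 CPM. In p38KO macrophages 2 of 6 were higher, Usp18 and Dpp4, where 12.6% of all genes were. DPP4 is a protease that trims CXCR3 ligands.

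The companions of Cxcl9 in the interferon-γ response mostly stayed within the fold in macrophages. Of 13 measured, 1 was lower in p38i (Cd274, the gene of PD-L1, at 139.8, 85.7 and 105 CPM) and 2 in p38KO (Gbp4 and Iigp1, interferon-inducible GTPases, with log2 ratios of -0.76 and -0.52), and none was higher. Their medians were -0.04 and -0.15, beside medians of -0.01 and 0.04 over all genes. Of all genes in the macrophage gate, 5.93% were lower and 4.63% higher in p38i, and 3.94% and 12.6% in p38KO. Psmb8, an immunoproteasome subunit, was at 773, 790.5 and 713 CPM. The type I companions were higher in p38KO macrophages, 7 of 7 with a median of 1.23 and against 12.6% of all genes, while Cxcl9 was lower there. Ifit2 was at 14.2 CPM in vehicle and 52.3 CPM in p38KO. In p38i macrophages, where 4.63% of genes were higher, 2 of 7 were higher (Ifit2 and Oas3) and none lower, with a median of 0.05. In p38i monocytes 5 of 7 were lower, against 3.6% of genes, and in p38KO monocytes 4 of 7 higher, against 10.7% of genes.

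Several other chemokines were lower in macrophages of each p38 group, and not all of these were lower in both. Of 14 measured, 6 were lower and 2 higher in p38i (median -0.43), and 7 were lower and 1 higher in p38KO (median -0.50). Of all genes 5.93% were lower and 4.63% higher in p38i, and 3.94% and 12.6% in p38KO. Cxcl2, which attracts neutrophils, was at 304, 77.6 and 249 CPM, and Ccl7 at 354, 123 and 269.9 CPM. Both were lower by the fold in p38i but stayed within it in p38KO. Ccl2, the main attractant of monocytes, was lower by the fold in both groups, at 538, 231 and 325 CPM. Ccl8 stood apart at 871, 626 and 2916 CPM, and Ccl24, an attractant of eosinophils, at 253, 543 and 149.8 CPM. In p38i neutrophils the same list had 4 higher (12.2% of all genes were) and 3 lower (4.02% were) of 13. In p38KO neutrophils it had 5 higher (12.7% of all genes were) and none lower (4.08% were) of 12.

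Most other genes that usually accompany Cxcr3 in T cells also stayed within the fold, 8 of 9 in p38i and 5 of 9 in p38KO. Of 9 such genes, 1 was lower in p38i (Gzmb, granzyme B, at 852, 496 and 411 CPM). In p38KO 4 were lower, Gzmb, Il12rb2, Eomes and Tbx21, the last the factor T-bet that drives Cxcr3, at 41.2, 40.4 and 24.9 CPM. Of all genes in the T gate, 3.47% were lower in p38i and 4.49% in p38KO. The makeup of the gate moved with these counts: Cd8a was at 538, 437 and 369 CPM, Cd4 at 92.8, 110.02 and 195 CPM, and the NK marker list at 571, 477 and 347 CPM, and their part was not tested. Of 9 other chemokine receptors measured in T cells, 2 were higher and 2 lower in p38i, and 1 higher and 3 lower in p38KO. Of all genes, 8.39% and 10.1% were higher there. Cxcr4 was at 73.4, 36.4 and 33.7 CPM and Ccr7, which guides cells to lymph nodes, at 76.5, 50.2 and 44.5 CPM.

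Over the 18 values of 6 gates in 3 libraries, the genes most like Cxcl9 were Asah1, Lgmn, Ctsa, Tnfrsf21 and Ctss, with Pearson r from 0.953 to 0.959 on log2(CPM + 10). Most like Cxcl10 were Ftl1-ps1, Nampt, Slc15a3, Slc3a2 and Il18 (0.907 to 0.924), and most like Cxcr3 were Gramd3, Arhgap15, Grap2, Suox and Msi2 (0.96 to 0.968). Ftl1-ps1 is a pseudogene and may share reads with Ftl1. Cxcl9 and Cxcl10 correlated at 0.63. The points share libraries and the order of cell types, so these are descriptions.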

How the data were processed

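Live CD45+ cells of 3 samples, each pooled from 3 mice, were measured by 10x Genomics 3' scRNAseq. The authors ran Cell Ranger (6.0.0 in the file headers; mm10, R 4.2.1 and Seurat 5 in the submitters' processing notes), and the deposited values are raw UMI counts per gene and barcode with no normalization. The annotation of the reference is not given in the sources used here. Whether strand was used in counting is not stated either.

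Barcodes with fewer than 1500 UMIs, fewer than 300 genes or more than 20% mitochondrial counts were removed, as in the study. The T gate needed at least 1 count of Cd3e, the NK gate 1 of Ncr1 without Cd3e, and the DC gate 1 of Flt3. The macrophage gate needed 2 of C1qa, the monocyte gate 2 of Ly6c2 plus Fn1, and the neutrophil gate 2 of Csf3r plus Cxcr2. No doublet caller was used. Counts were summed per gate and library and divided by the gate's total. Levels carry exact Poisson 95% intervals, log2 ratios exact conditional binomial intervals (0.5 stood in for a count of 0), and shares Clopper-Pearson intervals; a count of 0 allows up to 3 counts. Shares and splits within gates used cells thinned to 1500 UMIs. No p-values were computed, because there is 1 library per group, and condition cannot be told apart from library. The ratio was tested on simulated sums with Poisson error only, and the gates on made-up cells with set marker counts. Neither covers UMIs gathered in a few cells, as seen in these data. The 3 genes and all gene lists were chosen with earlier results of these data known. Named list genes are the 3 with the largest change of those with at least 50 counts, those that carry the pathway, and others of the list chosen after their values were seen. Cxcl11 and Mx1 were not analysed here, and the values of another listed gene are not reported here. Python 3.11.15, numpy 2.4.6, scipy 1.17.1, pandas 2.3.3 and matplotlib 3.10.9 were used.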

Additional observations from a re-analysis of the deposited data

Results flagged for a closer look

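Effects of opposite direction in different gates stood out for both ligands, and none of these differences between gates was tested. In p38KO, Cxcl10 had a log2 ratio to vehicle of -0.96 in macrophages and -1.30 in T cells but 1.54 in neutrophils. The macrophage value is -0.0011 without the 5 leading cells of each library, and the T cell value is 1.04. Those 5 cells are a larger part of the vehicle macrophage gate, with 175 cells, than of the p38KO gate, with 574. Cxcl9 in p38KO had a log2 ratio of -1.68 in macrophages and 1.44 in neutrophils, where the macrophage marker list was at 291 CPM in vehicle and 575 CPM. In p38i, Cxcl9 had a log2 ratio of -1.34 in macrophages and -1.22 in monocytes but 1.31 in DC, where 5 cells held 88.8% of its UMIs. Cxcr3 in p38KO had a log2 ratio of 0.91 in T cells with Cd8 and -1.17 in T cells with Cd4.

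Cells that met no gate were used in no comparison, and Cxcl9 was higher in them in p38KO than in vehicle (log2 ratio 0.58; 189 against 126 CPM), but 5 p38KO cells held 87.8% of these UMIs. Without the 5 leading cells of each library the order turned, at 23.9 CPM in p38KO and 65.5 CPM in vehicle, and 2.86% of p38KO against 3.31% of vehicle ungated cells held a UMI after thinning. They held 455 of 3859 kept cells in p38KO and 635 of 3820 in vehicle, and mast or basophil markers reached 2077 CPM among them.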

How the results depend on the processing

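Log2 ratios to vehicle are given for p38i and then p38KO where both are named. Raising each gate minimum by 1 UMI moved Cxcl10 to -0.054 and 0.25 in monocytes, to -0.66 in p38i neutrophils and to 0.11 and 1.47 in T cells. Gate minimums of 1 UMI gave -0.70 and -0.80 for Cxcl10 in macrophages, -0.20 in p38i monocytes and 0.17 in p38KO T cells. Gating by the largest marker list gave -1.5 and -1.38 for Cxcl9 in macrophages and, for Cxcl10, -0.90 and -1.15 in macrophages, -0.061 and 0.80 in monocytes, -0.51 and 1.42 in neutrophils, 0.057 in p38i DC and 0.49 in p38KO T cells. Keeping cells of several gates gave Cxcl9 -1.77 in p38KO macrophages and -0.38 in p38KO neutrophils, and Cxcl10 -0.65 and 1.41 in neutrophils. The stricter mitochondrial limit of 10% gave Cxcl10 0.14 in p38KO monocytes, and median-ratio scaling 1.44 in p38KO neutrophils. Thinning to 1500 UMIs gave Cxcl9 -0.96 and -1.10 in macrophages, and Cxcl10 -1.58 and -0.26 in macrophages, -0.057 in p38i monocytes and 1.42 in p38KO neutrophils. The mean of per-cell CPM gave Cxcl9 -0.94 and -1.22 in macrophages, and Cxcl10 -1.15 and -0.16 in macrophages, 0.53 in p38KO monocytes and 1.38 in p38KO neutrophils. Without cells above the 99th percentile of UMIs, Cxcl9 was at -1.54 and -1.84 and p38KO Cxcl10 at 0.68 in macrophages.

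Alternatives chosen after the counts were seen moved values too. Gates from scaled marker lists gave -1.73 for Cxcl9 in p38i macrophages and, for Cxcl10, -1.73 and -1.07 in macrophages, -0.29 and -0.17 in monocytes, 0.97 in p38i DC and 0.35 and 1.22 in T cells. Without the 5 leading cells, Cxcl9 was at -1.21 and -1.54 in macrophages, and Cxcl10 at -1.11 and -0.0011 in macrophages, -0.087 and 0.16 in monocytes, 1.72 in p38KO neutrophils and 1.04 in p38KO T cells. In macrophages these 5 cells are a larger part of the vehicle gate than of the p38KO gate. The causes were not tested beyond what each alternative leaves out.

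Cxcl10 in interferon-high p38i neutrophils, at -0.25 in the main setting, ranged from -0.29 to 0.15 over the alternatives. Cxcl9 in macrophages kept its direction under all alternatives run, from -1.73 to -0.94 and from -1.84 to -1.10. So did Cxcl10 in the whole neutrophil gate and in p38i macrophages, and Cxcr3 in Cd8 and Cd4 T cells. For Cxcl9 in macrophages this remains a description, since the gene was chosen on that contrast. Lowering the minimum to 20 counts raised genes past the fold from 865 to 1578 in p38i macrophages and from 1100 to 1993 in p38KO neutrophils. With 1 added to the CPM, 2, 4 and 1 of the 5 genes most like Cxcl9, Cxcl10 and Cxcr3 were shared. No paired analysis was possible because each group is 1 library. The DC and NK gates held at most 84 and 132 cells in a library, and neutrophils were shallow, with medians of 2180 to 2529 UMIs.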

Other observations

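The share of cells with both ligands lay above the product of their shares in the macrophage, monocyte and neutrophil gates of all 3 libraries, but on few cells and often within counting error. After thinning, 14 of 175 vehicle macrophages, 8 of 193 p38i macrophages and 23 of 574 p38KO macrophages held both (8%, 4.15% and 4.01%, beside products of 6.37%, 3.14% and 2.76%). The intervals of the macrophage shares include the product in all 3 libraries (4.44 to 13.1%, 1.81 to 8%, and 2.56 to 5.95%), as do those of p38KO monocytes (0.779 to 3.93%, product 1.03%) and vehicle neutrophils (0.126 to 0.744%, product 0.136%). They leave it out in vehicle and p38i monocytes and in p38i and p38KO neutrophils. In neutrophils both were found in 6, 9 and 15 cells. Of p38KO neutrophils with Cxcl9, 34.9% held Cxcl10, against 14.7% of those without. Depth that varies between cells was equalised by the thinning, and doublets were not removed.

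In all kept cells together Cxcl9 was at 366 CPM in vehicle, 159 CPM in p38i and 256 CPM in p38KO, and Cxcl10 at 294, 206 and 368 CPM. The p38KO macrophage gate held 14.9% of kept cells against 4.58% in vehicle. Ccl8, another interferon-responsive chemokine, was at 7.29 CPM in vehicle monocytes, 3.51 CPM in p38i and 129.96 CPM in p38KO.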
